A study of Mus musculus with 20 samples.

Results

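The hepcidin control pathway was followed through 9 genes, Hamp, Bmp6, Hjv, Tmprss6, Neo1, Hfe, Tfr2, Trf and Smad7, in RNA recovered with iron regulatory protein 2 (IRP2) from 5 mouse tissues. Every probe set whose annotated symbol was one of these genes was taken, whatever its values, which gave 18 of the 45101 probe sets on the array. Of these, 16 were tested because they were at or above their array's median value on 2 or more of the 20 arrays, and each of the 9 genes, set beside 18194 genes with a probe set of their own, kept at least 1 tested probe set. The only Trf probe set is annotated to both Trf and Srprb, so its values cannot be assigned to Trf alone.

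Each tissue had 2 IRP2 reactions and 2 control reactions, numbered as replicates 1 and 2. All RNA came from C57BL6/J mice of mixed sex. The IRP2 reactions combined 50 µg of total RNA with recombinant His-tagged IRP2 made in E. coli and an antibody against the tag, and the control reactions ran in parallel without IRP2. Duodenum, liver and spleen RNA was pooled from 4 mice fed an iron-poor diet (under 10 mg of iron per kg) for 21 days from weaning. Bone marrow and brain RNA was pooled from 6 mice aged 8 to 10 weeks on an iron-normal diet. When the first 3 tissues are set against the other two, tissue, diet and age cannot be told apart, and no liver on an iron-normal diet was among the samples used here. Because RNA was pooled and nothing states that the replicates came from separate pools, p-values here cover the array-to-array spread alone, which may be technical. Values are log2 probe set summaries of about 120 ng of recovered RNA after a 2-step amplification.

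Hepcidin, the product of Hamp, is a peptide hormone of hepatocytes that binds the iron exporter ferroportin and causes its degradation, which lowers iron entry into plasma. Hamp transcription in liver is driven by BMP6, which signals through BMP receptors and the co-receptor hemojuvelin (Hjv) to receptor-regulated SMAD proteins, and by inflammatory cytokines through STAT3. Iron-loaded transferrin (Trf) is sensed by HFE and transferrin receptor 2, the protease TMPRSS6 cleaves hemojuvelin, and SMAD7 inhibits the signal. IRP2 instead acts after transcription: it binds hairpins called iron-responsive elements (IREs) in mRNAs such as those of ferritin and the transferrin receptor Tfrc. The question put to the 9 genes was whether their mRNAs were recovered with IRP2, and where among the tissues they were found.

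The Hamp promoter is shown because it carries the letters through which the pathway reaches the hormone, beside that of the neighbouring copy Hamp2. Both stretches run from 150 to 61 bases before the start of transcription, on the minus strand of chromosome 7 in GRCm38.p6, in sequence from RefSeq. The Hamp stretch is chr7:30944090-30944179 and the Hamp2 stretch is chr7:30924242-30924331. Capitals mark GGCGCC, the core of BMP-responsive elements, and TTCNNNGAA, the letters of a STAT site, both of which read the same on either strand and do not overlap here.
Hamp: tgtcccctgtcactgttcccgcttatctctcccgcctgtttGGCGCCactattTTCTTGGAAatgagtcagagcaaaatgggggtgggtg
Hamp2: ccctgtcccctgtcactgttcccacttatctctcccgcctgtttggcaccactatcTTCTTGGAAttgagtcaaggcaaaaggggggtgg
In Hamp, GGCGCC began 109 bases and TTCNNNGAA 97 bases before the start. Hamp2 held TTCNNNGAA from 94 bases before its start, and its window had no GGCGCC, although 227 of the 250 upstream Hamp bases (90.8%) were identical in an alignment of the 2 genes. Over all 32851 RefSeq promoter windows of 300 bases, 11.9% held GGCGCC, 8.3% held TTCNNNGAA and 0.645% held both. Windows existed for 5 of the 9 genes (Hamp, Hfe, Tfr2, Bmp6 and Neo1), and among the others of these the only match to either motif was a GGCGCC in Neo1, 28 bases before the start.

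The loop of an IRE reads CAGTGN in DNA letters, usually with a C before it and 5 bases between the 2. This was searched on the transcribed strand in the first 50 transcribed bases of the same windows. Elements farther along an mRNA were not covered. Only the second of the 3 Tfr2 starts in the table had a match. It is printed from position 26 to 50 of that start (chr5:137570745-137570769, plus strand, GRCm38.p6, RefSeq), with CAGTGN in capitals.
Tfr2: gtctgcccgcaaCAGTGGggtttgt
The match began at position 38 and had the C before it. CAGTGN was in the first 50 bases of 7.08% of all windows, and with the C before it in 1.55%. These are matches of letters in short windows and do not show a hairpin or a binding site.

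None of the 16 tested probe sets was called higher or lower in IRP2 than in control reactions in any tissue (limma, Benjamini-Hochberg adjusted p under 0.05 over 30153 probe sets). Of all tested probe sets, duodenum had 0.073% called higher, liver 0.0332%, spleen 0.063%, bone marrow 0.00995% and brain 0.0597%. The share called lower was 0.00332% in brain and 0% in the other tissues. In the mean of the 5 tissues, which uses all 10 pairs, 0 of 16 were called, against 0.365% of all probe sets called higher and 0.00663% called lower. With call shares this small, a count of 0 among 16 is near the background, and the sizes of the differences say more than the count. At an unadjusted p under 0.05, limma also gave 0 members in every contrast, while 0.706% to 6.51% of all tested probe sets passed. With the replicate number as a block, 0 were called after adjustment. The background of that fit was 0.282% higher and 0.0133% lower in duodenum, 0.206% and 0.0133% in liver, 0.292% and 0.0133% in spleen, 0.378% and 0.348% in bone marrow, 0.139% and 0.00332% in brain, and 1.07% and 0.146% in the mean. At an unadjusted p under 0.05 there were 3 in duodenum, 1 in liver and 1 in bone marrow, where 6.36%, 5.39% and 21.8% of all tested probe sets passed. An F test for a difference between tissues in IRP2 minus control called 0 of 16, against 0.00332% of all probe sets, and 0 of 16 against 0.0398% with the block.

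The mean of the 5 tissues had the narrowest intervals, but it bounds an average over tissues and not recovery in a single tissue. Hamp and Hjv 1429223_a_at reached the array median on liver arrays alone, so the other tissues in their means held little signal. Over the 16 probe sets, the mean log2 difference of IRP2 minus control lay between -0.11 and 0.05, with a median of -0.05 beside -0.02 over all tested probe sets. The highest upper end of a 95% confidence interval was 0.39, a 1.31-fold higher recovery with IRP2, for Neo1 probe set 1440789_at. For Hamp the interval was -0.13 to 0.24, for Tfr2 (1459994_x_at) -0.36 to 0.14, for Bmp6 -0.17 to 0.28 and for the probe set of Trf and Srprb -0.22 to 0.23. Within 1 tissue the intervals were wider. In liver the interval was -0.17 to 0.67 for Hamp, and the upper end was 0.92 for Hjv 1454137_s_at. Of the 80 differences by probe set and tissue, 8 had an upper end above 1 and none was itself above 1.

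Over the mean of the 5 tissues, the IRE mRNAs measured on the same arrays gave larger differences. By their brightest probe set, the mean log2 difference was 1.90 for Tfrc, 1.45 for the iron importer Slc11a2, 1.52 for the haem synthesis enzyme Alas2, 0.83 for the ferritin subunit Fth1, 0.45 for ferroportin (Slc40a1) and 0.46 for the hypoxia factor Epas1. The first 4 were called, and all 6 with the replicate block. None of the 16 upper ends in the mean reached 0.45, the smallest of these means. The confidence intervals of the smallest means ran lower, from 0.18 to 0.71 for ferroportin and from 0.16 to 0.76 for Epas1. Some pathway upper ends lay inside both intervals, such as 0.39 for Neo1 1440789_at. Others lay below both, such as 0.14 for Tfr2 1459994_x_at. The pathway probe sets as a group were therefore not separated from ferroportin and Epas1. This comparison is over all 5 tissues and does not bound recovery in liver alone. The differences of the 6 were not uniform among the tissues. In bone marrow Epas1 was below control in both pairs (-0.86 and -0.58) and ferroportin split (-0.51 and 0.51). Without the block none of the 6 was called there, the other 4 having differences of 0.61 to 1.20. In duodenum Alas2 (0.15) and ferroportin (0.19) had overlapping groups, and in spleen ferroportin differed by 0.26. Ferroportin, the protein that hepcidin acts on, was higher with IRP2 in 9 of 10 pairs, with a limma adjusted p of 0.356 without the block and 0.0303 with it. In the 160 pairs of pathway probe sets, IRP2 was higher in 71 (44.4%), against 48.4% over all tested probe sets.

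**Figure D1:**
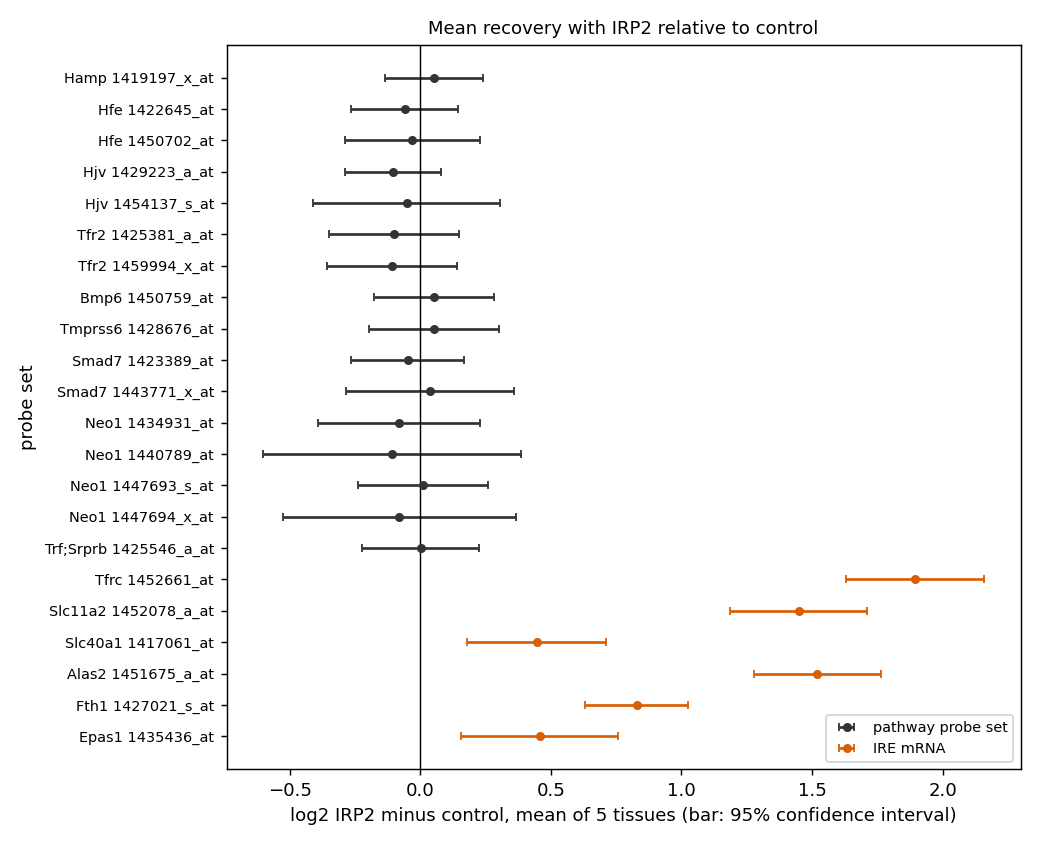
Mean log2 IRP2 minus control over 5 tissues (x axis) for each of the 16 tested pathway probe sets (dark) and the brightest probe set of 6 IRE mRNAs (orange), with 95% confidence intervals as bars. The pathway means lie between -0.11 and 0.05 and every one of their intervals spans 0, and the IRE mRNAs lie between 0.45 and 1.90.

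Hamp itself was dim. Probe set 1419197_x_at read 6.25 and 6.16 with IRP2 in liver, against 6.004 and 5.905 in the liver controls. Both IRP2 arrays were above both controls, by 0.24 and 0.25 in the 2 pairs, but the mean of 0.25 ± 0.20 (SE, n = 2 each) did not pass the test (limma adjusted p = 1.00, unadjusted 0.226). In liver, 13.9% of all tested probe sets had both IRP2 arrays above both controls and 20.7% had both below. Among the 16 pathway probe sets the counts were 2 above and 3 below. In the other 4 tissues Hamp lay between 4.97 and 5.44 with IRP2 and between 5.04 and 5.48 in controls, below the median of its array on all 16 arrays. The second Hamp probe set, 1419196_at, was under the array median on all 20 arrays and was not tested. It read 5.06 and 5.12 with IRP2 in liver, against 5.18 and 4.83 in the controls, and 3.31 to 4.41 elsewhere. An _x_at probe set may match more than 1 transcript by the naming of the maker, so signal from Hamp2 in 1419197_x_at cannot be told apart from Hamp.

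Bmp6, the ligand, lay near the array medians, at or above them on 5 of 20 arrays. With IRP2 it read 5.26 and 4.91 in liver, against 4.97 and 4.79 in controls, a difference of 0.21 ± 0.24 (SE). The groups overlapped in every tissue, and the differences ran from -0.09 in bone marrow to 0.21 in liver.

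Hjv, the co-receptor that ties BMP6 to hepatocytes, was measured by 2 probe sets. In liver the brighter one, 1454137_s_at, read 9.46 and 9.27 with IRP2, against 9.29 and 9.20 in controls, and the groups overlapped. The other, 1429223_a_at, read 7.10 and 7.20 with IRP2, against 7.31 and 7.44 in controls. Here both IRP2 arrays were below both controls, by 0.20 and 0.24, so the probe sets of the same gene had differences of opposite sign (0.12 ± 0.38 and -0.22 ± 0.19, SE). Neither passed the test. The pair difference farthest from 0 among the 16 probe sets was also at 1454137_s_at, in bone marrow, where IRP2 minus control was 0.27 in pair 1 and -0.80 in pair 2.

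Tmprss6, the hepatocyte protease that cleaves hemojuvelin, read 10.82 and 11.02 with IRP2 in liver, against 10.64 and 10.77 in controls. The IRP2 arrays were above the controls by 0.18 and 0.26, and the mean of 0.22 ± 0.26 (SE) did not pass the test. In bone marrow its pairs split, with 0.67 in pair 1 and -0.37 in pair 2.

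Neo1 encodes neogenin, a membrane protein that binds hemojuvelin, and it had the difference closest to a call. Its probe set 1434931_at read 6.22 and 6.02 with IRP2 in bone marrow, against 5.65 and 5.42 in controls, so the groups did not overlap and the pairs gave 0.56 and 0.60. The mean was 0.58 ± 0.33 (SE of the fit without the replicate block), a 1.49-fold higher value. Its limma adjusted p was 0.816, and 0.0776 with the replicate block. In liver the same probe set was below the controls, with 6.37 and 6.58 in IRP2 against 6.73 and 6.96 in controls, a mean of -0.37. It was also below the controls in duodenum (-0.31) and spleen (-0.21), without overlap. A difference between tissues was not called (F test, adjusted p 1.00, and 0.632 with the block). The other tested Neo1 probe sets had smaller bone marrow differences of the same sign. The brightest, 1447693_s_at, gave 0.28 without overlap (pairs 0.40 and 0.16). With overlapping groups, 1440789_at and 1447694_x_at gave 0.13 and 0.09. The bone marrow control of replicate 1 stands apart from the rest of its tissue, with a rank correlation of 0.955 to the spleen arrays, while the 3 arrays beside it had 0.915 to 0.917. Without it the bone marrow difference was 0.70 at 1434931_at, 0.09 at 1447693_s_at, -0.19 at 1440789_at and -0.19 at 1447694_x_at.

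Hfe, an MHC class I-like protein that partners with the transferrin receptors, gave opposite small differences in 2 tissues of the iron-poor diet. At 1422645_at duodenum read 6.64 and 6.71 with IRP2, against 6.24 and 6.48 in controls, a difference of 0.32 ± 0.22 (SE). Liver read 8.07 and 8.41 with IRP2, against 8.47 and 8.48 in controls, a difference of -0.24 ± 0.22. The groups were apart in both tissues, neither difference passed the test, and the second Hfe probe set gave -0.02 in duodenum and 0.02 in liver. In duodenum, 14.4% of all tested probe sets had both IRP2 arrays above and 8.98% had both below, and of the 16 pathway probe sets 1 was above and 1 below.

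Tfr2, the transferrin sensor that resembles Tfrc in protein but whose mRNA is not among the classical IRE mRNAs, had the liver difference closest to 0 of the 16 probe sets. At 1459994_x_at it read 12.94 and 12.97 with IRP2, against 12.93 and 12.99 in controls, a difference of -0.01 ± 0.26 (SE). Tfrc in the same liver arrays differed by 2.78 ± 0.28, in both pairs (2.94 and 2.63). In brain both Tfr2 probe sets were lower with IRP2, by 0.26 and 0.23, with overlapping groups.

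The probe set of Trf and Srprb read 13.20 and 13.46 with IRP2 in liver, against 13.21 and 13.37 in controls, a difference of 0.04 ± 0.24 (SE). Trf encodes the iron carrier of plasma and Srprb a subunit of the signal recognition particle receptor. The groups overlapped in all 5 tissues.

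Smad7, the inhibitory SMAD, read 8.39 and 9.05 with IRP2 in duodenum, against 8.36 and 8.78 in controls at 1423389_at, a difference of 0.15 ± 0.23 (SE). The second probe set, 1443771_x_at, read 8.37 and 9.10 with IRP2 in duodenum, against 8.04 and 8.74 in controls. The pairs gave 0.33 and 0.35, an even difference between replicates that lay far apart within each reaction. It had a block p of 0.0365 before adjustment and 0.737 after it.

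**Figure D2:**
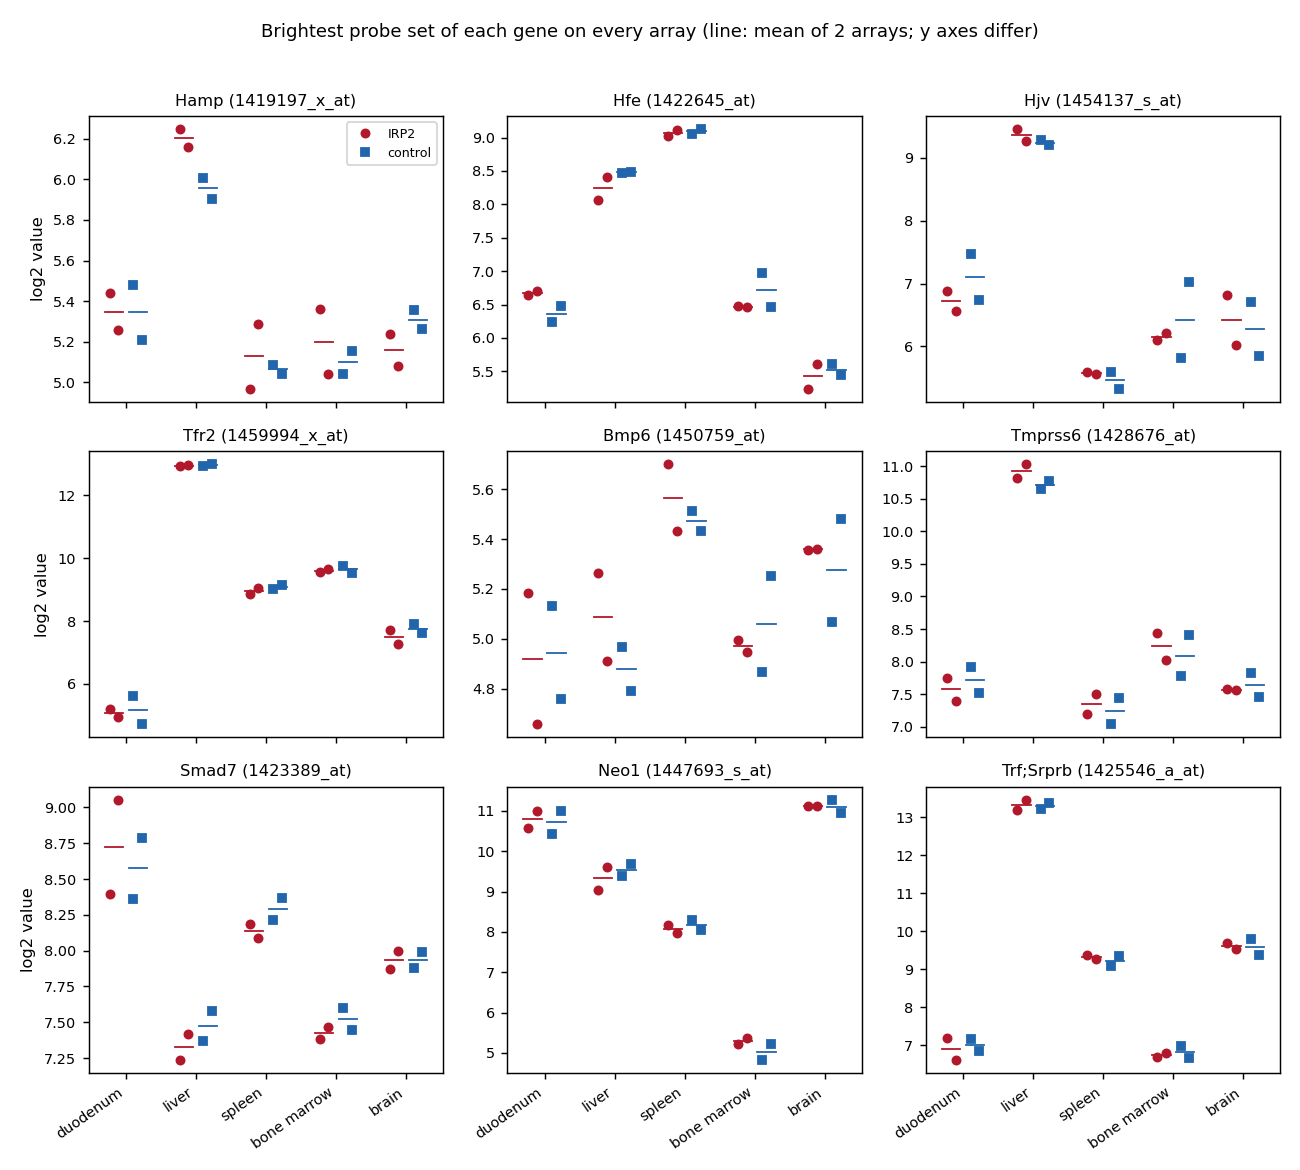
Log2 value (y axis, scaled per panel) of the brightest probe set of each gene on all 20 arrays, by tissue, with IRP2 reactions as circles left of control reactions as squares and a line at the mean of 2 arrays. Tfr2 controls average 12.96 in liver, against 5.17 in duodenum, while the circles and squares of a tissue lie close together.

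The groups of some of the 16 probe sets did not overlap in the remaining tissues either. In spleen 2 were above and 5 below, where 15.6% and 20.2% of all tested probe sets were. Bone marrow had 3 above and 1 below, where 14.5% and 12.1% of all were. In brain 0 were above and 1 below, where 4.21% and 6.44% were.

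**Figure D3:**
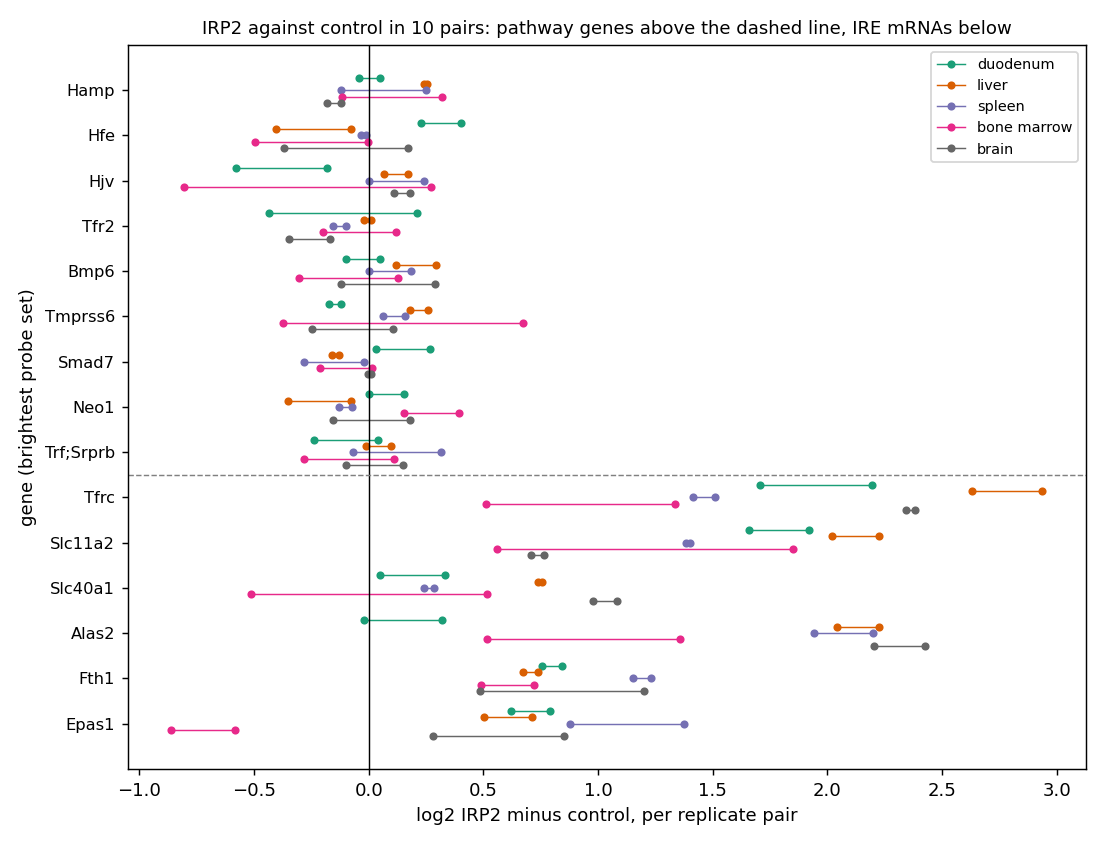
Log2 IRP2 minus control (x axis) for each of 10 replicate pairs, coloured by tissue, with the pair of a tissue joined by a line. The brightest probe sets of the 9 pathway genes (above the dashed line) scatter around 0 between -0.80 and 0.67, and Tfrc and Slc11a2 (below it) are above 0.5 in all 10 pairs.

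The tissue levels were read from the control reactions, which hold RNA recovered without IRP2 and so stand in for total RNA only indirectly. In bulk RNA, fewer cells of a type and less RNA per cell cannot be told apart. The tissues carried their own markers: all 7 measured liver markers were highest in liver, 7 of 7 bone marrow markers in bone marrow, 6 of 7 duodenum markers in duodenum, 5 of 6 spleen markers in spleen and 4 of 5 neuron markers in brain. All 5 measured markers of pancreatic acinar cells were highest in duodenum, with a mean log2 level of 12.4 there and 6.53 to 9.52 in the other tissues. Array medians were 5.65 to 5.71 in duodenum, liver and brain replicate 1 and 5.39 to 5.55 in the others, so values between tissues were also checked after quantile normalization and median centring.

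Of the 16 tested probe sets, 11 were higher in liver than in the mean of the 4 other tissues (background 20.5%) and 1 was lower (background 22.5%). A probe set counted as higher need not be highest in liver. Brain and duodenum were above liver at Neo1 1447693_s_at, and spleen at Hfe 1422645_at. Levels differed among the 5 tissues for 15 of 16 (F test, background 82.4%), all but Bmp6. The Hamp probe set and Hjv 1429223_a_at were at or above the array median on the 4 liver arrays alone, so they were tested only because liver was high. Without them 9 of 14 were higher in liver and 1 was lower, and 13 of 14 differed among the tissues.

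**Figure D4:**
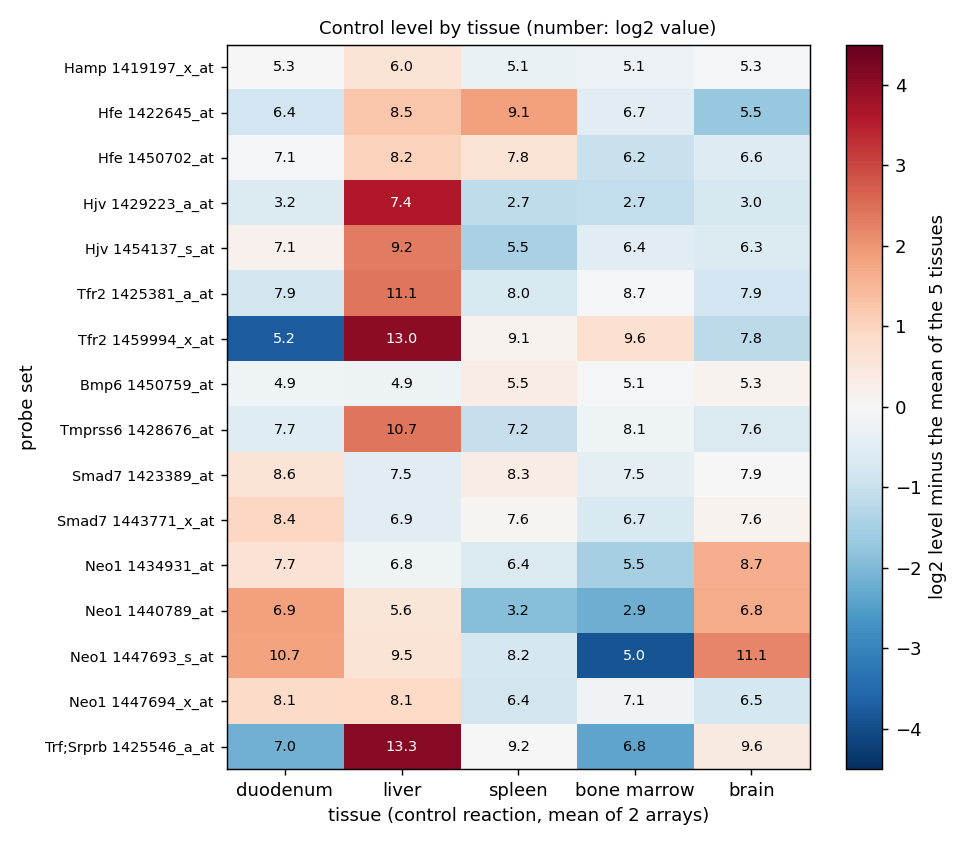
Mean log2 level in control reactions (numbers, n = 2 arrays) of the 16 tested probe sets in 5 tissues, coloured by the difference from the mean of the 5 tissues. Hjv, Tfr2, Tmprss6 and the probe set of Trf and Srprb are highest in liver, 3 of the 4 Neo1 probe sets in brain or duodenum, and Smad7 in duodenum.

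The probe set of Trf and Srprb had control values of 13.21 and 13.37 in liver, against 9.79 and 9.38 in brain, 9.08 and 9.34 in spleen, 7.16 and 6.86 in duodenum and 6.97 and 6.67 in bone marrow. Liver exceeded the mean of the others by 5.13 ± 0.19 (SE, adjusted p 7.0e-12). The steps from brain to spleen (0.38 ± 0.24, adjusted p 0.212) and from duodenum to bone marrow (0.19 ± 0.24, adjusted p 0.539) did not pass the test, while spleen exceeded duodenum by 2.20.

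Tfr2 at 1459994_x_at had control values of 12.93 and 12.99 in liver, against 9.76 and 9.53 in bone marrow, 9.02 and 9.16 in spleen, 7.90 and 7.61 in brain and 5.63 and 4.72 in duodenum. Liver exceeded the mean of the others by 5.04 ± 0.21 (SE, adjusted p 2.6e-11), and no array of another tissue reached it. Bone marrow and spleen, which came next, differed by 0.56 ± 0.26 (adjusted p 0.112), and by 0.44 without bone marrow control replicate 1. Erythroid markers, 4 of 6 measured, averaged 8.48 in bone marrow and 8.23 in spleen, against 5.06 to 5.75 in the other tissues. Of these 4, 2 were highest in bone marrow, 1 in spleen and 1 in liver. TFR2 is also known from erythroid precursors as a partner of the erythropoietin receptor; whether erythroid cells account for these levels was not tested. The second Tfr2 probe set also had liver first (11.13) and bone marrow next (8.68), with a difference to the mean of the others of 3.00, but put duodenum at 7.91, where 1459994_x_at was at 5.17.

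Hjv at 1429223_a_at was at 7.31 and 7.44 in liver controls, against 2.60 to 3.27 on all 8 control arrays of the other tissues, a difference of 4.48 given without a test because this probe set passed the filter through liver alone. The other Hjv probe set, 1454137_s_at, gave 2.93 ± 0.30 (SE, adjusted p 1.1e-06), with 5.32 to 7.46 on the same 8 arrays. Hemojuvelin is also made by skeletal muscle, and the 6 muscle markers averaged 4.30 to 4.77 in every tissue. The part of muscle in the Hjv levels was not tested. Tmprss6 was at 10.64 and 10.77 in liver controls, against 7.04 to 8.40 elsewhere, a difference of 3.03 ± 0.21 (adjusted p 1.0e-08). No step between neighbours among the 4 other tissues passed the test, in the order bone marrow, duodenum, brain, spleen. The ends of this order differed, with spleen minus bone marrow at -0.85 ± 0.26 (SE, adjusted p 0.0213).

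Hamp controls averaged 5.95 in liver, against 5.34 in duodenum, 5.31 in brain, 5.10 in bone marrow and 5.06 in spleen. Liver lay 0.75 above the mean of the others, again given without a test because the probe set passed the filter through liver alone. No step between neighbours among the other tissues passed. The liver mice were on the iron-poor diet, a state known to lower hepcidin, and no iron-normal liver was used here, so diet as a source of the low Hamp level was not tested. The 2 probe sets of Hamp2, the neighbouring copy, disagreed. At 1436643_x_at it had control values of 7.81 and 7.51 in liver, against 5.95 and 7.19 in bone marrow, 6.20 and 6.16 in duodenum, 5.70 and 5.64 in spleen and 5.43 and 5.31 in brain. Liver exceeded the mean of the others by 1.71 ± 0.24 (SE, adjusted p 3.0e-05). At 1456289_at the control values were 5.48 and 5.43 in liver, against 5.59 and 5.40 in duodenum and 5.33 and 5.68 in bone marrow. Spleen (4.96 and 5.02) and brain (5.18 and 5.10) were below liver. The difference of liver to the mean of the 4 others did not pass (0.17 ± 0.18, adjusted p 0.454). Levels of different probe sets are not on 1 scale, so Hamp and Hamp2 are not ranked.

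Hfe was shared between liver and spleen. At 1422645_at spleen was highest, with 9.06 and 9.13 in spleen against 8.47 and 8.48 in liver, and spleen exceeded liver by 0.62 ± 0.22 (SE, adjusted p 0.0235). At 1450702_at liver was above spleen, 8.13 and 8.35 against 7.81 and 7.79, by 0.44 ± 0.27, which did not pass (adjusted p 0.173). Relative to the mean of the 4 other tissues, liver was higher at both (1.55 and 1.30). Brain at 1422645_at and bone marrow at 1450702_at were lowest.

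Neo1, the hemojuvelin-binding protein, followed a different map. At 1447693_s_at it was 11.28 and 10.94 in brain controls, 10.43 and 11.01 in duodenum, 9.39 and 9.69 in liver, 8.29 and 8.04 in spleen and 4.83 and 5.21 in bone marrow. The step from brain to duodenum did not pass (0.39 ± 0.26, SE, adjusted p 0.244), and each further step down passed the test, the last by 3.14. Probe sets 1434931_at and 1440789_at also had brain and duodenum first and bone marrow last. Probe set 1447694_x_at disagreed, with liver (8.13) and duodenum (8.11) first, spleen (6.44) last and brain at 7.16 and 5.79 in its replicates.

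Smad7 at 1423389_at had its highest mean in duodenum, with control values of 8.36 and 8.78, and its lowest in liver, with 7.37 and 7.58. No step between neighbouring tissues passed the test, and liver and bone marrow were 0.05 apart (adjusted p 0.867). Liver was below the mean of the others by 0.61 on the log2 scale (-0.61 ± 0.18, SE, adjusted p 0.0136). The call was lost without liver control replicate 1 (-0.50, adjusted p 0.165) or replicate 2 (-0.71, adjusted p 0.0542). The second probe set gave -0.65 ± 0.27 (adjusted p 0.0614) and had bone marrow (6.74) below liver (6.93), and duodenum exceeded liver at both, by 1.10 and 1.46. Acinar markers were high in duodenum too, and their part in the Smad7 level was not tested. Bmp6 controls averaged 4.88 in liver, against 4.94 in duodenum and 5.06 to 5.47 in the other tissues, and neither the difference of liver to the mean of the others (-0.31 ± 0.19, adjusted p 0.197) nor the F test over tissues (adjusted p 0.147) passed.

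Genes whose brightest probe sets followed each member most closely over the 10 control arrays were named by Pearson correlation, as a description over 5 tissues in duplicate that all share these tissue differences. Hjv went with Cyp4a31 (0.993), Cyp2c39 (0.990) and Acnat2 (0.984), and Tmprss6 with Bbox1 (0.992), Mup5 (0.991) and Cyp2j5 (0.991). Hamp went with Agt (0.983), Dpys (0.981) and Aspg (0.977), and Trf and Srprb with Ivd (0.979), Slc7a2 (0.978) and Bckdhb (0.977). Agt encodes angiotensinogen, a plasma protein made by liver, and Mup5 a major urinary protein. Tfr2 went with Paqr9 (0.984), Slc66a2 (0.969) and Tedc2 (0.959), and Hfe with Bst2 (0.974), H2-Ke6 (0.973) and Gimap9 (0.971). Neo1 went with the tight junction gene Tjp1 (0.991), Cmtm4 (0.990) and Abhd6 (0.988). Smad7 was closest to Erlin2 (0.993), followed by Prrx1 (0.955) and Slc43a2 (0.951), and Bmp6 to Tmem80 (0.926), Kcnj16 (0.913) and Srek1 (0.902).

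The wider pathway was read from 5 lists: BMP ligands and receptors (12 genes tested), BMP antagonists (7), SMAD proteins and BMP target genes (8), the inflammatory route to hepcidin (11) and processing, shedding and erythroid regulators (9). Each gene was taken at its brightest probe set. Against control, 0 of these 47 were called with IRP2 in any tissue or in the mean by limma without the block, at the background shares given above. The medians of the lists in the mean of the 5 tissues were -0.07 to 0.04, beside -0.02 over all tested probe sets. Among the brightest genes of the lists, the receptor Bmpr2 gave a mean of -0.15, the common partner Smad4 -0.09, Stat3 -0.03, and B2m, the light chain of HFE, -0.08, with limma adjusted p-values of 1.00.

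With the replicate block, a search of every probe set of the list genes called 3 genes, all of the inflammatory route. At the brightest probe sets only Il6ra and Lepr were called. The SEs given with these genes are of the fit without the block. The interleukin-6 receptor Il6ra had a mean difference of 0.43 ± 0.13 (SE, IRP2 higher in 9 of 10 pairs), with a limma adjusted p of 0.0182 with the block and 0.4995 without. Socs3, the feedback inhibitor of STAT3, had 0.44 ± 0.28 at 1456212_x_at (10 of 10 pairs, 0.0127 with the block and 1.00 without), which is not its brightest probe set. The leptin receptor Lepr was below control in bone marrow by 1.52 and 0.46 in the 2 pairs, with a mean of -0.99 ± 0.30 (0.0489 with the block and 0.698 without). The first of these pairs holds the bone marrow control that stands apart. With the block, 1.07% of all tested probe sets were called higher in the mean and 0.348% lower in bone marrow. The search covered every probe set of these genes in all contrasts, so these shares cannot be set directly against the 3 genes.

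In tissue levels, of genes chosen here after their values were seen, the ligands Bmp5 and Bmp2 were higher in liver than in the mean of the other tissues. Bmp5 controls averaged 9.22 in liver, against 9.11 in duodenum, 7.28 in brain, 4.83 in bone marrow and 3.95 in spleen, with liver above the mean of the others by 2.92 ± 0.20 (SE, adjusted p 8.5e-09). Bmp2, a ligand of liver endothelium, was higher in liver by 1.41 ± 0.21 (adjusted p 5.3e-05), although liver was at 8.08 and duodenum at 8.34. Of all tested probe sets 20.5% were higher in liver and 22.5% lower, with a median difference of 0.02. Of the 12 BMP ligands and receptors 3 were higher and 1 lower (median 0.33), and of the 7 antagonists 2 and 0 (0.27). The inflammatory route had 5 of 11 higher and 1 lower (median 0.48), and the processing list 4 of 9 higher and 2 lower (0.08). The 8 SMAD proteins and BMP target genes had 0 higher and 3 lower, with a median of -0.24. These 3 were the BMP target genes Id1 (-1.02 ± 0.27, adjusted p 0.00706), Id3 (-0.77 ± 0.20, 0.00705) and Id4 (-1.97 ± 0.27, 2.2e-05). Fgl1, a liver-secreted protein known to bind BMP ligands, had the widest difference of the 47 genes, 12.999 in liver against 4.75 to 5.88 elsewhere (7.62 ± 0.32, adjusted p 3.5e-11). Relative to the same mean, the receptor Lepr was higher in liver by 3.00, the receptor Il6ra by 1.14 and the hepatocyte factor Cebpa by 3.43. Il6ra was at 7.73 in liver, close to 7.61 in spleen and 7.62 in bone marrow, against 5.87 in duodenum and 5.30 in brain.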

How the data were processed

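The members and gene lists were chosen with earlier results of these data known. The authors deposited log2 values, a scale read from the values, after summarising each probe set with RMA or with MAS5 and quantile normalization, per the series' design text. Which arrays had which, and versions, are not given in the sources used here. Symbols came from the platform annotation and sequences from RefSeq (GRCm38.p6). Probe sets were tested where they reached their own array's median on at least 2 of 20 arrays (30153 of 45101, 66.9%, without 64 controls). The fit used limma 3.58.1 (R 4.3.3) with 10 group means (10 residual degrees of freedom, prior 5.34), with Benjamini-Hochberg adjustment per contrast and a threshold of 0.05. Arrays of equal replicate number deviated together within tissues (correlations 0.676, 0.565, 0.385, 0.251 and 0.923 in duodenum, liver, spleen, bone marrow and brain), so equal numbers were taken as pairs; this rests on the values and on reactions run in parallel. A fit with this block was an alternative, beside other filters, quantile normalization, median centring, robust moderation and each array left out. All SEs and confidence intervals printed are from the fit without the block. Arrays give no read depth, and 2 arrays per group limit the precision. The script was tested on simulated data. The brightest probe set of a gene has the highest mean over 20 arrays; every member probe set is named, and of the lists the genes called and up to 4 of the brightest, with list genes beyond these in the tissue levels chosen after their values were seen.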

Additional observations from a re-analysis of the deposited data

How the results depend on the processing

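The count of pathway probe sets called with IRP2 was 0 in each tissue, in the mean and in the F test under all 26 alternatives, the replicate block and each left-out array included (0 to 0 over the arrays left out). With the replicate block, the smallest adjusted p of a member was 0.0776. The count differing between tissues (15) lay between 13 and 17, and that differing between liver and the other tissues (12) between 9 and 14; over the arrays left out these ranged from 14 to 15 and from 9 to 13. Without the 2 probe sets that passed the filter on liver arrays alone, an alternative chosen after seeing the data, they were 13 and 10. No called level changed direction. Bmp6 in liver passed after quantile normalization (-0.49, adjusted p 0.04999, just under the threshold). Smad7 1443771_x_at, not called in liver in the main fit, passed after quantile normalization (-0.65, limma adjusted p 0.0320). It also passed after median centring (-0.80, adjusted p 0.0228) and from IRP2 arrays (-0.98, adjusted p 0.00807). Neo1 1447693_s_at in liver (0.79) was lost without liver control replicate 2 (0.64, adjusted p 0.124) and from IRP2 arrays (0.51, adjusted p 0.0591). Smad7 1423389_at was lost without either liver control. The causes were not tested. Liver differences rest on 2 control arrays. Probe sets at or below the array medians, such as those of Hamp and Bmp6, limit what could be seen.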
